A study of Mus musculus with 4 samples.

Results

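Spp1, the gene of osteopontin (secreted phosphoprotein 1), and 7 genes of osteopontin receptors were followed transcript by transcript in the tibial bone marrow of obese mice with and without exercise. The 8 genes were all rows of the deposited transcript tables named Spp1, Cd44, Itgav, Itgb3, Itgb5, Itga5, Itga9 or Itgb1, which gave 8 of 55401 genes and 48 of 142604 transcripts. Spp1 was chosen by its lower FPKM in the exercised mice of these same libraries, so its difference between the groups is a description and carries no test. The receptor genes were taken because their proteins are known to bind osteopontin, with earlier results of these data known.

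Male mice of the strain labelled WT, C57/B6 entered the study at 8 weeks of age and were fed a high-fat diet (HFD) until they were obese. The obese group (Ob, labelled HFD) then stayed on the diet, and the exercised group (Ob + Exe, labelled HFD and Exercise) ran on a treadmill at moderate intensity for 12 weeks. Both groups thus carried the HFD, and no lean mice are among the 4 libraries, 2 for each group. Marrow was spun out of the bone, and RNA with a poly-A tail was sequenced in bulk, so that fewer cells of a type and less RNA per cell cannot be told apart. The labels do not say whether the 2 libraries of a group came from 2 mice, and p-values measure only the spread between these libraries.

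The 4 libraries held 44310505 to 53038186 read equivalents (coverage times transcript length over the read length of 150 bases). Besides the tissue, the labels name mesenchymal stem cells as the cell line and fibroblast as the cell type. The data were those of whole marrow. Scaled FPKM (fragments per transcript length and library depth, scaled between libraries) summed to 28622 to 67579 for 10 neutrophil genes and 53873 to 81922 for 10 erythroid genes. For 10 genes of marrow stroma the sum was 111 to 168. Over genes averaging an FPKM of 1 or more, log2 values correlated at 0.949 between the Ob libraries, 0.900 between the Ob + Exe libraries and 0.909 to 0.948 across the groups. The Ob + Exe libraries therefore resembled each other less than any other pair.

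Osteopontin is a secreted, phosphorylated glycoprotein of mineralized matrix, made in bone by osteoblasts, osteocytes and osteoclasts and elsewhere by macrophages and other cells. An arginine-glycine-aspartate (RGD) motif in its middle binds the integrins αvβ3, αvβ5, αvβ1 and α5β1, and a stretch beside the motif, opened when thrombin cuts the protein, binds α9β1 and α4β1. CD44, better known as the receptor of hyaluronan, is a further receptor, and osteoclasts use αvβ3 to hold on to bone.

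The sequences of Spp1 on which the transcript results turn are its 2 starts and its RGD codons. RefSeq (GRCm38.p6) lists 2 promoters for the gene, and 7 of the 8 genes have a promoter in that table. The first line below is the 250 bases before the upstream start, chr5:104434861-104435110 on the plus strand, with the RUNX motif AACCACA, a match to the CCAAT box on the other strand and the TATA-like run TTTAAA in capitals. The second is the 250 bases before an inner start within intron 1, chr5:104435942-104436191, in which none of the motifs searched was found. The third is chr5:104439457-104439534, codons 136 to 161 of Spp1-201 in its exon 6 of 7, with the RGD codons in capitals.

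Spp1 upstream start: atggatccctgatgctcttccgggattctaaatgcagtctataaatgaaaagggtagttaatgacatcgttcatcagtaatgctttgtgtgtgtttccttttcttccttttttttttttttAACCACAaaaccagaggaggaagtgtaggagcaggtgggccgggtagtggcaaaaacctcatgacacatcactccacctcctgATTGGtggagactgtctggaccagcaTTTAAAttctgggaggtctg
Spp1 inner start: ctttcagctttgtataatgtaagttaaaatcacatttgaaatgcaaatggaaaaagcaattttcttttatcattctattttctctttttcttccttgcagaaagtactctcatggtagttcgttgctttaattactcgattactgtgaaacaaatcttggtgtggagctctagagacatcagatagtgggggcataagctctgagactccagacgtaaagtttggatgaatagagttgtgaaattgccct
Spp1 RGD stretch: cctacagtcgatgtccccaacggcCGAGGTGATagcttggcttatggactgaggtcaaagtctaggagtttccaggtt

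In the upstream window the RUNX match began at -129, the CCAAT box at -46 and the TATA-like run at -20 from the RefSeq start. Both strands were searched, and an AP-1 motif (TGANTCA) and the letters AGTTCA of a vitamin D receptor site were found in neither window. Among 32851 RefSeq promoter windows of the same length, AACCACA was present in 4.40%, CCAAT in 33.8%, TTTAAA in 12.1%, TGANTCA in 6.75% and AGTTCA in 11.8%. These matches are letters only. The RGD motif begins at residue 144 of the 294 residues coded by Spp1-201, and the 7 residues that bind α9 and α4 integrins begin at residue 147.

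Spp1 (ENSMUSG00000029304.14, chr5:104435118-104441050 on the plus strand of GRCm38) had an FPKM, summed over its transcripts, of 31.1 and 46.6 in the Ob libraries and of 14.6 and 18.8 in the Ob + Exe libraries. Both Ob + Exe libraries were lower than both Ob libraries. The means were 38.8 ± 10.96 (SD, n = 2) and 16.7 ± 2.997 (SD, n = 2). After scaling between libraries the Ob + Exe mean was 45.9% of the Ob mean, with a log2 fold change of -1.11 and an SD of 0.36 within groups on the same scale. The sums rested on 2937 and 4223 read equivalents in Ob against 1216 and 1562 in Ob + Exe, with summed transcript coverage of 309, 449, 128 and 164 in the same order.

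**Figure D1:**
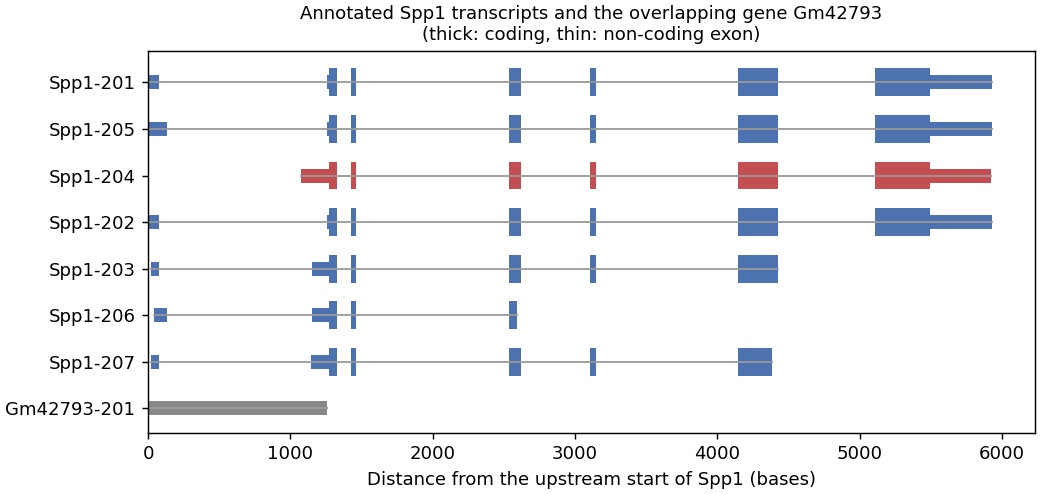
Map of the 7 annotated Spp1 transcripts and of the overlapping gene Gm42793, by distance in bases from the upstream start (thick bars, coding exons; thin bars, other exonic bases). Spp1-204 (red) starts 1074 bases downstream of the upstream start, inside the first intron of Spp1-201, where its own bases coincide with Gm42793.

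Of the 7 annotated Spp1 transcripts, 3 had a value above 0 in a library. Spp1-201, with 7 exons and 1410 bases, had an FPKM of 21.8 and 46.2 in Ob against 12.8 and 14.6 in Ob + Exe, and a coverage of 217, 445, 113 and 127. It was the most abundant Spp1 transcript in each library. Spp1-205, which has 52 bases that Spp1-201 lacks and lacks 6 of its bases, had an FPKM of 9.06 and a coverage of 90.2 in the first Ob library and 0 in the other 3. Spp1-202, Spp1-203, Spp1-206 and Spp1-207 were listed at 0 in all 4 libraries.

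Spp1-204, with 6 exons and 1507 bases, went the other way from the gene. Its FPKM was 0.182 and 0.410 in Ob against 1.77 and 4.18 in Ob + Exe, with a coverage of 1.81, 3.95, 15.5 and 36.4, and the groups did not overlap. It made up 0.585% and 0.880% of the Spp1 FPKM in Ob against 12.1% and 22.2% in Ob + Exe, which set the group means 16.4 percentage points apart. It stood on 18 and 40 read equivalents in Ob and on 156 and 366 in Ob + Exe. The 6 transcripts from the upstream start summed to 30.9 and 46.2 in Ob against 12.8 and 14.6 in Ob + Exe. Their group means on the log2 scale differed by -1.37, and the scaled Ob + Exe mean was 37.9% of the scaled Ob mean.

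Spp1-204 differs from Spp1-201 in its start and in a few bases at its end. Of its bases, 183 are absent from Spp1-201, and 181 of these also lie in Gm42793, an annotated gene on the same strand (chr5:104435121-104436372). Gm42793 had 15 and 10 read equivalents in Ob and 0 in both Ob + Exe libraries, the opposite order to Spp1-204. StringTie divides reads on shared bases between such transcripts by estimate, and how far that division made the difference was not tested. The 183 bases lie in intron 1 of Spp1-201 and run straight into its exon 2, and whether reads on them mark a start was not tested. Spp1-201, Spp1-204 and Spp1-205 have the same coding sequence of 882 bases, RGD codons included. The shift between them therefore leaves the annotated protein unchanged. Spp1-202, at 0 here, codes for 295 residues.

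**Figure D2:**
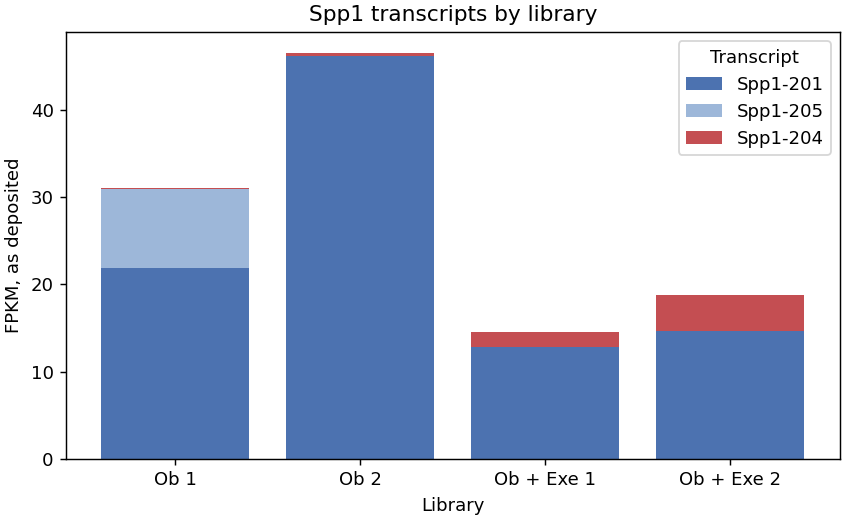
Deposited FPKM of the Spp1 transcripts above 0, stacked for each of the 4 libraries (bar height, Spp1 sum). Spp1-201 fills most of each bar, Spp1-205 appears in the first Ob library only, and Spp1-204 is visible in both Ob + Exe bars at 1.77 and 4.18.

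Shifts in transcript share of this size were common in these tables. Among 5339 genes of more than 1 transcript that averaged an FPKM of 10 or more, 26.0% had a transcript whose share moved by 10 points or more with groups that did not overlap. Of the 8 genes, 4 could be read in this way (mean FPKM of at least 10), and Spp1 was the 1 that moved, with limits set after its values were seen. Below that level, shares moved as far and without overlap for 2 receptor transcripts. These were Itga5-201 (92.8% and 99.3% in Ob, 0% and 88.0% in Ob + Exe) and Itgav-201 (87.0% and 86.8% in Ob, 99.0% and 97.5% in Ob + Exe). The share of Spp1-204 is therefore not set apart from the background.

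The levels of the 8 genes, per length and averaged over the 4 libraries, fell in the order Cd44 (mean FPKM 48.9), Itgb1 (35.6), Spp1 (27.8), Itgb3 (18.3), Itga5 (6.49), Itgb5 (4.51), Itgav (2.99) and Itga9 (0.410). Neighbours in this order overlapped in their ranges over libraries except at 2 steps, between Itgb3 and Itga5 and between Itgav and Itga9. Among the 8 genes, the α subunits Itgav and Itga5 were lower in level than their β partners Itgb3, Itgb5 and Itgb1 in each library, except that Itgb5 was below Itgav in the second Ob + Exe library.

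**Figure D3:**
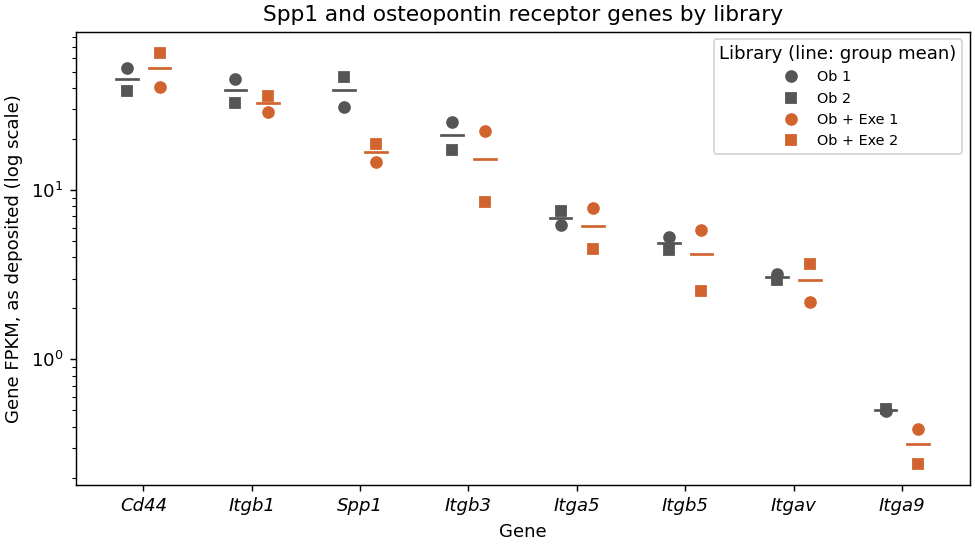
Deposited gene FPKM (log axis) of Spp1 and the 7 receptor genes in each library, ordered by mean level (grey, Ob; orange, Ob + Exe; line, group mean of 2 libraries). The groups are apart for Spp1 and Itga9 and overlap for the other 6 genes.

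Integrin αvβ3, the osteoclast and platelet-lineage receptor of RGD ligands, is made of the products of Itgav and Itgb3. Itgav (chr2:83724397-83806916, plus strand) had an FPKM of 3.18 and 2.95 in Ob against 2.19 and 3.66 in Ob + Exe. The 2 Ob + Exe libraries lay on either side of the Ob pair, and the log2 fold change was -0.02 (95% interval -1.01 to 0.96, adjusted p = 0.996, limma). Itgb3 (chr11:104608000-104670476, plus strand) had an FPKM of 25.2 and 17.3 in Ob against 22.1 and 8.45 in Ob + Exe. The second Ob + Exe library was the lowest and the first lay within the Ob range, with a log2 fold change of -0.52 (95% interval -1.66 to 0.62, adjusted p = 0.960, limma). Without the first Ob + Exe library Itgb3 was called lower, with a log2 fold change of -1.16 (limma, adjusted p = 0.524), and without the second its log2 fold change was 0.13.

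Itgb3 also pairs with Itga2b, the αIIb subunit of the platelet fibrinogen receptor, which had an FPKM of 34.8 and 51.8 in Ob against 49.9 and 14.3 in Ob + Exe. Itga2b was 3.91 to 22.8 times the level of Itgav, and Itgb3 was 2.31 to 10.1 times that level. Both were lowest in the second Ob + Exe library. The summed scaled FPKM of 10 megakaryocyte and platelet genes, Itga2b among them, was 498 and 365 in Ob against 391 and 151 in Ob + Exe. It was lowest in the same library, and 4 of the 10 genes (Gp1bb, Gp1ba, Gp5 and Treml1) were called lower, against 2.75% of all genes tested. The part of these cells in the Itgb3 values was not tested.

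Itgb5 (chr16:33829665-33949338, plus strand), the β subunit of αvβ5, had an FPKM of 5.29 and 4.44 in Ob against 5.79 and 2.53 in Ob + Exe. The Ob + Exe libraries were the highest and the lowest of the 4 (log2 fold change -0.24, 95% interval -1.31 to 0.82, adjusted p = 0.975, limma). Its ratio to Itgav was 1.67 and 1.505 in Ob against 2.65 and 0.692 in Ob + Exe, so that the exercised pair held both extremes.

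Itga5 and Itgb1 encode the fibronectin receptor α5β1, which also takes up the RGD motif of osteopontin. Itga5 (chr15:103344286-103366763, minus strand) had an FPKM of 6.19 and 7.52 in Ob against 7.78 and 4.46 in Ob + Exe, and again the Ob + Exe pair enclosed the Ob pair (log2 fold change -0.12, 95% interval -0.95 to 0.71, adjusted p = 0.984, limma). Itgb1 (chr8:128685654-128733200, plus strand), the β1 subunit shared by many integrins, had an FPKM of 45.0 and 32.8 in Ob against 29.0 and 35.8 in Ob + Exe. Its groups overlapped, with a log2 fold change of -0.16 (95% interval -0.82 to 0.49, adjusted p = 0.975, limma). Itgb1 was 3.72 to 8.04 times the level of Itga5 and 9.79 to 14.2 times that of Itgav.

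Itga9 (chr9:118606690-118901003, plus strand), whose product pairs with β1 and binds the stretch beside the RGD motif, was the lowest of the receptor genes. Its FPKM was 0.498 and 0.511 in Ob against 0.390 and 0.241 in Ob + Exe, from 232, 231, 161 and 98 read equivalents. Neither Ob + Exe library reached the level of either Ob library, which made Itga9 the 1 receptor gene of 7 whose groups did not overlap, where 32.6% of all genes tested had groups that did not overlap. The log2 fold change was -0.50, with a 95% interval from -2.003 to 1.01 (adjusted p = 0.971, limma). The antisense gene Gm2415, which overlaps Itga9, had 282 and 343 read equivalents in Ob against 684 and 134 in Ob + Exe. Where 2 such genes share bases, a library kit that does not mark strand leaves their reads undivided.

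Cd44 (chr2:102811141-102901665, minus strand) was the most abundant receptor gene and the 1 receptor with a positive log2 fold change. Its FPKM was 52.5 and 38.3 in Ob against 40.4 and 64.5 in Ob + Exe, and the groups overlapped. The log2 fold change was 0.27 (SE 0.32, 95% interval -0.53 to 1.07, adjusted p = 0.971, limma), and it became -0.11 without the second Ob + Exe library.

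None of the 7 receptor genes was called at the thresholds the study states, a log2 fold change over 1 in size with an unadjusted p below 0.05 (0 of 7 with limma, 0 of 7 at an unadjusted p under 0.05 alone, and 0 of 7 with limma-voom). Of all 18596 genes tested, 3.74% were called, and 2.75% were called lower in Ob + Exe, and the 0 of 7 lies close to that background. The log2 fold changes of the receptor genes ran from -0.52 to 0.27 with a median of -0.16, against -0.02 for all genes tested, and 6 of the 7 were below 0. With 2 libraries in each group an exact permutation test of a single gene cannot give a two-sided p below 0.333. No gene had a limma adjusted p under 0.05, although 939 genes had an unadjusted p under 0.05. In a fit blocked on replicate 18 genes had a limma adjusted p under 0.05. The block leaves each log2 fold change as it was, so the receptor genes, all under 1 in size, could not be called in it. The intervals above reach beyond a log2 change of 1 in size for Cd44, Itgb3, Itgb5, Itgav and Itga9, so that the data do not limit their change to less than that size. For Itgb1 and Itga5 the intervals stayed between -1 and 1.

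**Figure D4:**
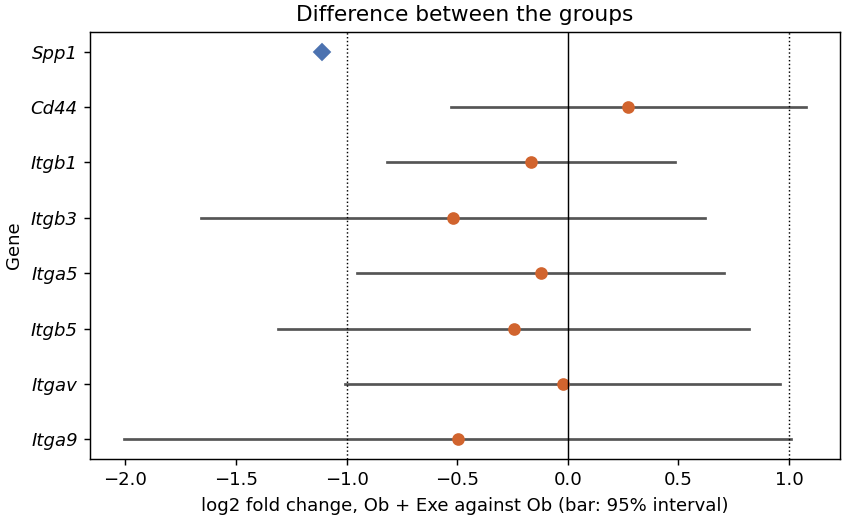
Log2 fold change of each gene, Ob + Exe against Ob, on the log2(scaled FPKM + 0.1) scale (points; bars, 95% intervals of the limma fit; dotted lines, a change of 1 in size). Spp1 is drawn without an interval because it was chosen by this difference, at -1.11, and all 7 receptor intervals cross 0.

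Of the 41 receptor transcripts, 15 had a mean FPKM of at least 0.1 and entered a fit over 46692 transcripts, in which 6.44% of transcripts were called. None of the 15 was called by limma (0 of 15), and no transcript in the whole fit had an adjusted p under 0.05, although 3239 transcripts had one when the second Ob library was left out. In all, 27 of the 48 transcripts of the 8 genes were above 0 in at least 1 library and 12 were above 0 in all 4.

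Cd44 was carried mainly by 2 transcripts. Cd44-201, with 19 exons and 5614 bases, had an FPKM of 40.3 and 35.5 in Ob against 40.4 and 51.9 in Ob + Exe, with a coverage of 401, 342, 356 and 451, which was 76.7% to 100% of the gene. Cd44-203, a form with 9 exons whose 2848 bases all lie within Cd44-201, had an FPKM of 10.4 and 2.46 in Ob against 0 and 11.6 in Ob + Exe. Since Cd44-203 has no base of its own, its level depends on how the reads on shared exons were divided, and 2766 bases are found in Cd44-201 only. Cd44-206 (1.72 and 0 in Ob, 0 and 1.09 in Ob + Exe) and the retained-intron form Cd44-209 (0.330 at most) were minor.

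Itga5 showed the sharpest split between near-identical transcripts. Itga5-201, the protein-coding form, had an FPKM of 5.75 and 7.47 in Ob against 0 and 3.92 in Ob + Exe, whereas Itga5-202, annotated as a target of nonsense-mediated decay, had 7.75 in the first Ob + Exe library and 0 in the other 3. The pair share 4355 bases and differ by 27 and 60. The retained-intron forms Itga5-204 and Itga5-203 reached at most 0.535 and 0.365. The gene sum of 7.78 in the first Ob + Exe library was thus almost entirely assigned to a form that was at 0 elsewhere.

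The other receptor genes rested mainly on 1 transcript each. Itgb3-201 was the whole of Itgb3, Itgb1-201 was at least 99.2% of Itgb1 and Itga9-201 at least 99.9% of Itga9. Itgb5-202 had an FPKM of 4.35 and 4.44 in Ob against 5.79 and 2.53 in Ob + Exe, and Itgb5-201 was above 0 in the first Ob library only, at 0.938. Itgav-201 was 87.0% and 86.8% of Itgav in Ob against 99.0% and 97.5% in Ob + Exe. The short form Itgav-205 had 0.186 and 0.223 in Ob and 0 in both Ob + Exe libraries. It was not called by limma with all 4 libraries, but it was called with a pseudocount of 0.01, with no minimum level and without each of the 4 libraries in turn. The remaining forms above 0 were Itgav-203, Itgav-206, Itgav-208, Itgav-209, Itgb1-202, Itgb1-203, Itgb1-204, Itgb5-206 and Itga9-205, of which Itgb1-202 reached the highest FPKM, 0.184. The other genes that overlap a receptor gene were low: Gm10157 (Itga9) had 22 to 46 read equivalents, and Gm23731 (Cd44), Dnmt3l-ps1 and Gm13684 (Itgav) and Mir6963 (Itga5) had at most 19 in Ob and 0 in Ob + Exe.

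The rest of the pathway was read from 8 lists of 86 genes, of which 64 were tested. They held 4 genes called lower and 1 called higher (7.81% of those tested, against the 3.74% of all genes above), and their median log2 fold change was -0.02. Their adjusted p-values from limma were all above 0.7, so the calls below rest on unadjusted p-values.

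Osteopontin has 4 listed relatives in the SIBLING family of mineralized-matrix proteins. Ibsp, bone sialoprotein, was the 1 gene of 4 tested, and it was not called (FPKM 4.16 and 8.68 in Ob, 4.39 and 5.002 in Ob + Exe, log2 fold change -0.27). Dmp1 was at 0.0797 or below, and Dspp and Mepe were listed at 0. Of 3 further integrin subunits that bind osteopontin, 2 were tested and 0 called. Itga4, the α subunit of the receptor VLA-4 on blood cells, was high at 30.3 and 24.1 in Ob against 12.3 and 25.0 in Ob + Exe (log2 fold change -0.53). Itga8 was at 0.640 or below and Itgb6 at 0.0296 or below.

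Among 23 genes of other ligands of the same receptors, counting the enzymes that make the CD44 ligand hyaluronan, 15 were tested, 1 was called lower and 0 higher. The called gene was Ccn1, a matricellular protein that binds αvβ3, at 0.645 and 1.16 in Ob and listed at 0 in both Ob + Exe libraries. The most abundant were Srgn (serglycin, a proteoglycan that binds CD44), Fn1 (fibronectin) and Thbs1 (thrombospondin). Srgn had 293 and 174 in Ob against 267 and 309 in Ob + Exe. Fn1 had 40.5 and 49.2 in Ob against 51.3 and 59.9 in Ob + Exe, without overlap between groups and not called (log2 fold change 0.40, limma adjusted p = 0.960). Thbs1 had 36.8 and 29.9 in Ob against 31.6 and 67.2 in Ob + Exe. The fibrinogen genes Fga, Fgb and Fgg were listed at 0.

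Of 9 genes whose products act on osteopontin, 5 were tested and 0 called. Mmp9, a protease that cleaves it, had 181 and 83.0 in Ob against 107 and 188 in Ob + Exe. Acp5, the tartrate-resistant phosphatase of osteoclasts and macrophages that removes its phosphates, had 47.1 and 60.6 in Ob against 52.3 and 36.0 in Ob + Exe. Tgm2, which cross-links it, had 7.76 and 8.27 in Ob against 11.2 and 10.7 in Ob + Exe, apart between groups but not called (log2 fold change 0.53, limma adjusted p = 0.960). Mmp3 and Mmp7 were listed at 0.

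Downstream of the receptors, 21 of 22 genes of integrin activation and adhesion signaling were tested and 0 were called. Their most abundant members were Rac2 (97.6 to 168), Cd47 (89.5 to 142) and Rac1 (59.1 to 95.5), in which the groups overlapped. All 4 linkers of CD44 to the cytoskeleton were tested and 0 were called. Their levels were 82.1 to 109 for Msn (moesin), 48.3 to 61.7 for Ezr (ezrin) and 18.6 to 35.4 for Rdx (radixin).

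Among 11 other partner integrin subunits 6 were tested and 2 were called lower, against 2.75% of all genes tested. Itga6, a laminin receptor subunit, had an FPKM of 18.1 and 17.1 in Ob against 2.03 and 2.53 in Ob + Exe, with a fitted log2 difference of -2.82 (SE 0.28, limma adjusted p = 0.737, the smallest of all genes). Itga2, the collagen receptor subunit of platelets and other cells, had 1.43 and 1.44 in Ob against 0.627 and 0.429 in Ob + Exe (log2 fold change -1.23, limma adjusted p = 0.960). Neither product is an RGD receptor of osteopontin. Itgb7 (20.5 to 33.5) was among the most abundant and was not called.

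All 10 transcription factors known at the Spp1 gene were tested, and 1 was called in each direction. Vdr, the vitamin D receptor, had 0.642 and 0.730 in Ob against 0.124 and 0.0679 in Ob + Exe (log2 fold change -1.96, limma adjusted p = 0.960). Fos, a part of AP-1, had 5.97 and 6.51 in Ob against 13.6 and 15.3 in Ob + Exe (log2 fold change 1.28, limma adjusted p = 0.939). The letters searched for these 2 factors were not found in the Spp1 windows printed above. Those windows are short and other forms of the sites were not searched, so this does not show that Spp1 lacks sites for them. Ets1 (15.5 to 27.7) and Tfe3 (12.0 to 13.0) were the most abundant of the list and were not called. The upstream window holds a RUNX match, and Runx2, the master regulator of osteoblasts, had 6.52 and 6.12 in Ob against 5.02 and 5.10 in Ob + Exe and was not called.

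The cell types known to make osteopontin were read from their markers beside Spp1. The summed scaled FPKM of 10 osteoblast and osteocyte genes was 18.4 and 27.0 in Ob against 14.9 and 17.7 in Ob + Exe. This sum put the libraries in the same order as Spp1, and the groups did not overlap, as in 32.6% of all genes tested. Col1a1 (3.22 and 3.15 in Ob, 1.17 and 1.74 in Ob + Exe) and Bglap2 (1.15 and 3.53 in Ob, 0 and 0.681 in Ob + Exe) were called lower out of 8 tested, against 2.75% of all genes tested. The log2 fold change was negative for 7 of the 8. These included Col1a2, whose groups overlapped (6.43 and 6.61 in Ob, 4.99 and 6.91 in Ob + Exe, log2 fold change -0.06). Alpl had a positive one, 0.12 (0.645 and 0.612 in Ob, 0.775 and 0.550 in Ob + Exe). Sost, a marker of mature osteocytes, was listed at 0. The part of these cells in the Spp1 difference was not tested.

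**Figure D5:**
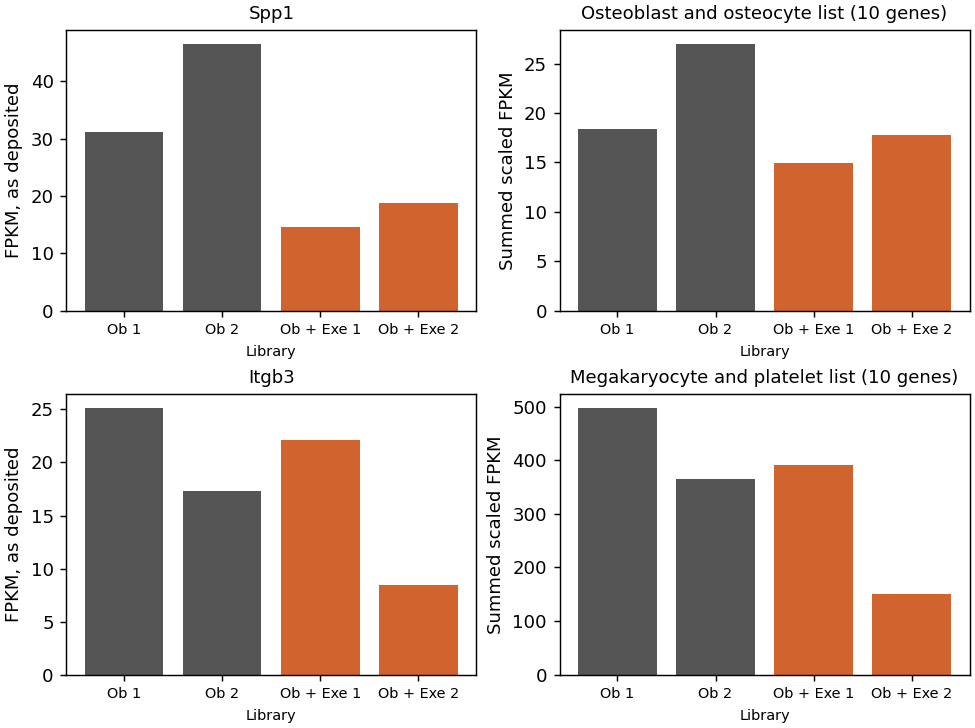
Deposited FPKM (left) of Spp1 (top) and Itgb3 (bottom) in each library, beside the summed scaled FPKM (right) of 10 osteoblast and osteocyte genes (top) and of 10 megakaryocyte and platelet genes (bottom), with Ob in grey and Ob + Exe in orange. The upper pair ranks the libraries alike, from the second Ob library (46.6 and 27.0) to the first Ob + Exe library (14.6 and 14.9), and in the lower pair the second Ob + Exe library is lowest (8.45 and 151).

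The summed markers of osteoclasts and of macrophages did not run in the order of Spp1. The summed scaled FPKM of 10 osteoclast genes was 1257 and 1483 in Ob against 1592 and 1539 in Ob + Exe. Nearly all of it came from Car2, a carbonic anhydrase that red cells also express. Atp6v0d2, a proton-pump subunit, was called higher, at 4.94 and 10.5 in Ob against 23.0 and 22.1 in Ob + Exe (log2 fold change 1.72, limma adjusted p = 0.952). Ctsk, cathepsin K, had 1.45 and 3.63 in Ob against 1.52 and 2.33 in Ob + Exe, and Dcstamp, Ocstamp and Calcr were at 0.121 or below. The summed scaled FPKM of 10 macrophage genes was 144 and 167 in Ob against 164 and 140 in Ob + Exe. These sums overlapped, and 0 of 10 genes were called. The groups did not overlap for 6 of the 10, against 32.6% of all genes tested, and 4 of these were lower in Ob + Exe. Cd163 was among the 4 and ran in the order of Spp1 (2.87 and 3.50 in Ob, 1.49 and 1.82 in Ob + Exe, log2 fold change -0.82). The part of osteoclasts and macrophages in the Spp1 values was not tested.

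The pattern of Spp1 over the 4 libraries was shared closely by other genes of unrelated kinds. By the distance between log2 values centred on each gene's mean, among 12408 other genes that averaged an FPKM of 1 or more, the closest were Fam89b (distance 0.0342), Tns2 (0.0986), Neurl2 (0.119), Ace (0.164) and Pitpnm2 (0.189). Fam89b had an FPKM of 14.0 and 21.4 in Ob against 6.45 and 8.55 in Ob + Exe, and Ace, the angiotensin-converting enzyme, had 4.23 and 7.498 in Ob against 2.11 and 2.82 in Ob + Exe. Likeness over 4 libraries is a weak measure, since each gene contributes 4 values only.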

How the data were processed

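Per the methods and labels, the authors trimmed paired reads with fastp, removed rRNA reads, aligned to GRCm38 with HISAT2 and quantified GENCODE transcripts with StringTie. The deposited tables give FPKM (per transcript length and aligned bases of the library, with no further scaling by the authors) and read coverage, a signal not normalized for depth, per transcript. DESeq2, which the study used on counts, was not used here, because the tables hold no counts.

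Transcript FPKM was summed per gene and scaled by median of ratios (factors 0.945 to 1.04). Genes or transcripts with a mean of at least 0.1 were fitted on log2(FPKM + 0.1) with limma 3.58.1 in R 4.3.3 (trended eBayes, Benjamini-Hochberg adjustment over all features, 2 residual and 3.79 prior degrees of freedom for genes). Fold changes on this scale understate those of low genes. The FPKM printed is as deposited unless called scaled. The code was tested on simulated data. Tables and figures used Python 3.11.15, pandas 2.3.3 and matplotlib 3.10.9. All 48 transcripts had the same span in GENCODE vM21, which gave types and sequence.

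Groups follow the labels. The receptor, pathway and marker lists and Spp1 were chosen with earlier results of these data known. Named are the 8 genes, their transcripts above 0, overlapping genes, each pathway list's called and 3 most abundant genes, markers at 0 and the 5 genes most like Spp1. Runx2, Ctsk, Dcstamp, Ocstamp, Calcr, Car2, Cd163, Fabp4, Col1a2, Alpl, Cfd, Cidec, Adipoq, Pecam1 and the called markers were also named, after their values were seen. Alternatives were the pseudocount, minimum, scaling, replicate block, limma-voom on read equivalents, the most abundant transcript alone and leaving out each library.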

Additional observations from a re-analysis of the deposited data

How the results depend on the processing

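The log2 fold change of Spp1, -1.11, stayed between -1.20 and -1.07 over the alternatives with all 4 libraries and between -1.39 and -0.83 when 1 library was left out. Receptor genes called stayed at 0 of 7 except without the first Ob + Exe library (0 to 1 with a library left out). The 696 genes called became 222 with a pseudocount of 1, 270 with a minimum mean FPKM of 1 (which drops Itga9), 460 with limma-voom and 745 to 1919 with a library left out, the most without the second Ob + Exe library. The 3008 transcripts called became 1808 with a pseudocount of 1, 1272 with a minimum of 1 and 4462 to 7130 with a library left out. Receptor transcripts called, 0, became 1 with a pseudocount of 0.01 and 1 with no minimum (Itgav-205 in both), and 1 to 4 with a library left out, Itgav-205 in each case, joined by Itga5-201, Itga5-202 and Cd44-203 without the second Ob + Exe library, Itga5-203 and Itgb5-201 without the second Ob library and Cd44-209 without the first. Without the second Ob library 3239 transcripts had a limma adjusted p under 0.05. The cause was not tested.

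With a library left out, the log2 fold change ranged from -0.11 to 0.66 for Cd44, -0.43 to 0.38 for Itgav, -1.16 to 0.13 for Itgb3, -0.78 to 0.29 for Itgb5, -0.47 to 0.23 for Itga5, -0.40 to 0.071 for Itgb1 and -0.73 to -0.27 for Itga9. The direction turned without the second Ob + Exe library for Cd44, Itgb3, Itgb5 and Itga5, without the first for Itgav and Itgb1 (0.033), without the first Ob library for Itgav (0.036) and Itgb1, and without the second for Itga5 (0.0081). Itgav also turned by its most abundant transcript (0.15) and by limma-voom (0.11). Each turned value was uncalled. Over the alternatives 78 values of single receptor genes kept their direction and stayed uncalled, and 11 turned. The remaining value was Itgb3 without the first Ob + Exe library, at -1.16. Among the 78, Itga5 was -3.30 by its most abundant transcript, Itga5-201, which was at 0 in the first Ob + Exe library. The 2 blocked fits and the minimum levels leave each log2 fold change as it was, so values under them could neither turn nor be called. A lone library was assumed to vary like the other group.

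The replicate numbers do not pair the libraries by any label, and deviations of same-numbered libraries correlated at -0.106 over all genes. With the replicate block 744 genes, 2148 transcripts, 0 receptor genes and 0 receptor transcripts were called, and 18 genes had an adjusted p under 0.05 (limma). With the numbers crossed, an alternative chosen after seeing the data, 802 genes, 2424 transcripts and 0 receptors were called. In that fit 11 genes had an adjusted p under 0.05 (limma). Neither block changes a log2 fold change, so the absence of called receptor genes under them was fixed in advance. Depth allowed counting of all 8 genes, although both Ob + Exe libraries were shallower than both Ob libraries, and the number of libraries limits the precision.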

Other observations

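Other cell types of the marrow were read from lists of their markers, as summed scaled FPKM. Endothelial genes were 18.8 and 17.6 in the Ob libraries against 14.1 and 11.9 in the Ob + Exe libraries. Most of each sum came from Pecam1 (deposited FPKM 12.4 and 11.9 against 8.05 and 7.66). The log2 fold change was negative for 7 of 7 endothelial genes, and 0 were called by limma. B cell genes were 199 and 207 against 159 and 126, and 2 of 8, the pre-B receptor gene Igll1 and the B cell receptor gene Cd79a, were called lower, against 2.75% of all genes tested. Adipocyte genes were 80.1 and 83.4 against 129 and 108, mostly from the fatty acid carrier Fabp4 (deposited FPKM 61.0 and 59.4 against 104 and 73.8). Of 6 tested 0 were called, and 2, Cfd (adipsin) and Cidec, had a negative log2 fold change (-0.21 and -0.75). Adipoq overlapped between the groups (deposited FPKM 4.16 and 6.15 against 4.09 and 8.22), and Lep was listed at 0. T and NK cell genes were 21.9 and 13.6 against 23.3 and 13.6, with 0 of 8 called. Skeletal muscle genes were 9.32 and 5.49 against 12.8 and 12.3, with Acta1 called higher out of 4 tested.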
